A study of Macaca mulatta with 8 samples.

Results

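The potassium channel genes of the rhesus macaque were followed through chromatin accessibility maps of cultured fetal cortex cells. Members were the protein-coding genes of the NCBI annotation of Mmul_10 whose symbol starts with KCN, 93 of 21122 protein-coding genes. Open chromatin was mapped by ATAC-seq, where the transposase Tn5 inserts adapters into accessible DNA, in primary cortex cells of 4 stages. E50, E60, E80 and E85 stand for post-conceptional days 50, 60, 80 and 85. Every culture came from frozen cortical tissue, dissociated and grown in medium with FGF2, EGF and BDNF that enriches progenitors, so the cells are a cultured population and not intact cortex. Each stage had 1 culture, from which 2 technical libraries were made, 8 in all. How many animals gave the tissue is not stated in the labels.

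The values are calls in a merged peak table. A region is a stretch of the genome (build rheMac10, the UCSC name of Mmul_10) into which peaks were merged, and a call at a stage means that 1 or more macaque peaks of that stage lie in it. A locus is the gene body and the 5000 bp upstream of it. A promoter region lies within 1000 bp of an annotated start of any lncRNA or protein-coding gene, and every other region is distal. With 1 culture per stage there is no replicate of a peak set, so no difference between stages was tested, and exact 95% intervals cover counting error alone. The sets also differ in size: of 72358 regions with a macaque peak, E50 had 18819, E60 59928, E80 58122 and E85 28982. Only E60 and E80 had sets of like size. Library depth was not used here. Each region is present or absent at a stage, and a region not called may have been open below the threshold of the caller. The samples are bulk cultures, in which fewer cells of a type and less accessibility per cell cannot be told apart.

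Potassium channels let potassium ions leave or enter the cell, and so set the resting membrane potential, end action potentials and shape firing. Their pore-forming subunits fall into voltage-gated, calcium- or sodium-activated, inwardly rectifying and two-pore-domain families, and auxiliary subunits alter gating and trafficking. In developing cortex they are known both from neurons, whose excitability they set, and from progenitors and glia, whose membrane potential rests on them.

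Of the 93 genes, 83 had at least 1 region in their locus (89.2%, against 77.3% of all protein-coding genes). Together these loci held 423 regions, of which 99 were promoter regions and 324 distal. Of these regions, 4 lay in 2 KCN loci each, 3 in KCNJ1 and KCNJ5 and 1 in KCNIP1 and KCNMB1, so gene by gene the counts add to 427. Regions in introns made up 69.3% of these 427, regions touching an exon 23.2%, and upstream regions 7.49%. The body of another protein-coding gene was overlapped by 16 of the 427. KCN genes were long, with a median body of 41.4 kb against 20.9 kb for all protein-coding genes, and they held 3.45 regions per 100 kb of locus against 3.81. No region at any stage lay in 10 loci: KCNA5, KCNA7, KCNA10, KCNG2, KCNJ14, KCNK15, KCNK16, KCNK18, KCNRG and KCNV2. E50 had 59 of the 423 regions (13.9%, against 26% of all regions) and E60 had 354 (83.7%, against 82.8%). E80 had 334 (79.0%, against 80.3%) and E85 had 123 (29.1%, against 40.1%). Among regions in all protein-coding loci the shares were 30.2%, 84.8%, 82.1% and 44.3% at the successive stages. Promoter regions made up 34.0% of those and 23.4% of the KCN regions.

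The promoters of potassium channel genes were called at E60 and E80 at shares near those of all genes, and at E50 and E85 at shares below them. At E50, 15 of the 93 genes had a region within 1000 bp of one of their own starts (16.1%, exact interval 9.32 to 25.2), where 44.3% of all protein-coding genes did. At E60 the count was 68 (73.1%, interval 62.9 to 81.8), against 64.7%. E80 had 61 (65.6%, interval 55.0 to 75.1), against 63.2%. E85 had 33 (35.5%, interval 25.8 to 46.1), against 53% of all genes. E50 and E85 were thus below the share of all genes by more than the counting interval, and the shares of all genes at E60 and E80 lay within the KCN intervals. The shortfall was not particular to KCN genes, since voltage-gated calcium channel genes stood at 16.7% at E50 and 22.2% at E85. The E50 and E85 sets were smaller, which is why the share of all genes stands beside each count. KCN promoter regions were also narrower, with a median of 882 bp against 1039.5 bp over all promoter regions. The part of set size and of width in the KCN shortfall was not tested. With regions of at most 1000 bp alone, the E50 share stayed below that of all genes (3.23%, interval 0.67 to 9.14, against 11.97%), while at E85 the share of all genes lay within the interval (13.98%, interval 7.66 to 22.7, against 17.1%). With regions that hold no lifted peak, few promoters were left and the share of all genes lay within the KCN interval at every stage. With regions of at most 1000 bp, KCN genes stood above all genes at E60 (46.2%, interval 35.8 to 56.9, against 27.8%) and at E80 (38.7%, interval 28.8 to 49.4, against 25.9%). The width cut is not neutral to stage pattern. Over all promoter regions, those called at all 4 stages had a median width of 1272 bp, above the cut. Own promoters called at all 4 stages marked 42.7% of all genes and 16.1% of KCN genes. The part of the cut in these differences was not tested.

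**Figure D1:**
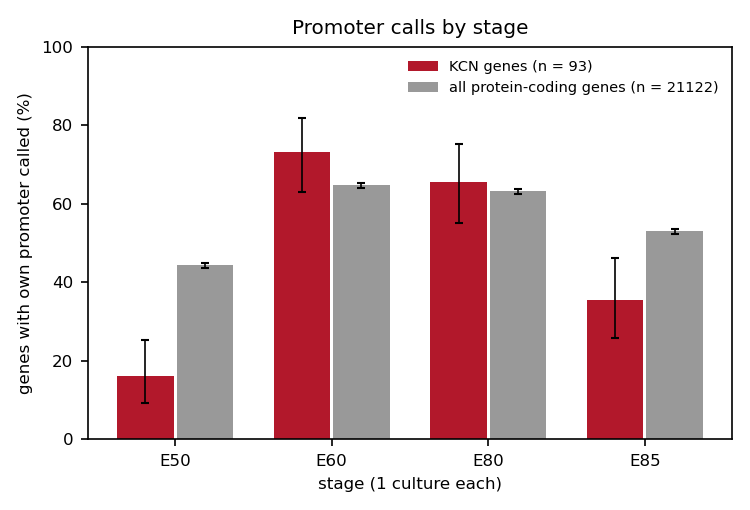
Share of genes with a called region within 1000 bp of an own transcription start (y axis, percent) at each stage (x axis), for the 93 KCN genes (red) and all 21122 protein-coding genes (grey). Bars start at 0 and error bars are exact 95% intervals for counting error. KCN genes stand at 16.1% and 35.5% at E50 and E85, where all genes stand at 44.3% and 53%.

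The calls were nested. Every KCN promoter called at E50 was also called at the other stages: 53 genes had a promoter called at E60 and not at E50 (21.5% of all genes did), and 0 the other way (1.11% of all genes). Likewise 28 were called at E80 and not E85 (11.1%) and 0 at E85 and not E80 (0.971%). Among genes whose promoter was called at E60, 22.1% of the KCN genes were also called at E50 (15 of 68, interval 12.9 to 33.8), and 66.8% of all protein-coding genes (9123 of 13665). Among those called at E80, 54.1% of the KCN genes were also called at E85 (33 of 61, interval 40.8 to 66.9), and 82.4% of all genes. Between the sets of like size, 8 KCN promoters were called at E60 and not E80 (2.67% of all genes) and 1 at E80 and not E60 (1.16%).

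The 4 main patterns account for 68 of the 69 genes with a promoter call. A promoter called at all 4 stages marked 15 genes (42.7% of all genes had this pattern). Among them were the voltage-gated pore genes KCNA1, KCNA2 and KCND3, the modulatory subunit gene KCNG1, and KCNH1 and KCNH5 of the EAG (ether-a-go-go) type. The small-conductance calcium-activated channel gene KCNN3, the inward rectifiers KCNJ2 and KCNJ10, the two-pore-domain genes KCNK9 and KCNK13, and the auxiliary genes KCNAB2 and KCNIP3 had the same pattern. KCNJ10 encodes the main inward rectifier of astrocytes. A promoter called at E60, E80 and E85 marked 18 genes (8.9% of all genes), among them KCNC1, a fast-firing channel gene of interneurons, KCNQ5 and KCNT1. The most common pattern, E60 and E80 alone, marked 27 genes (10.1% of all genes), among them KCNMA1, KCNQ3, KCNH7 and KCNK2. At E60 alone there were 8 (2.47% of all genes): KCNAB1, KCNC2, KCND2, KCNE5, KCNJ6, KCNJ9, KCNK6 and KCNS3. KCNJ6 and KCNJ9 both encode G protein-gated inward rectifier subunits, which cells open when inhibitory transmitters bind their receptors. KCNE4, an auxiliary subunit gene, was the 1 gene called at E80 alone (0.729% of all genes). The other 24 had no promoter call (33.1% of all genes), and 14 of these 24 still held a region elsewhere in the locus. KCNU1, KCNN1 and KCNN4 were among these 14.

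**Figure D2:**
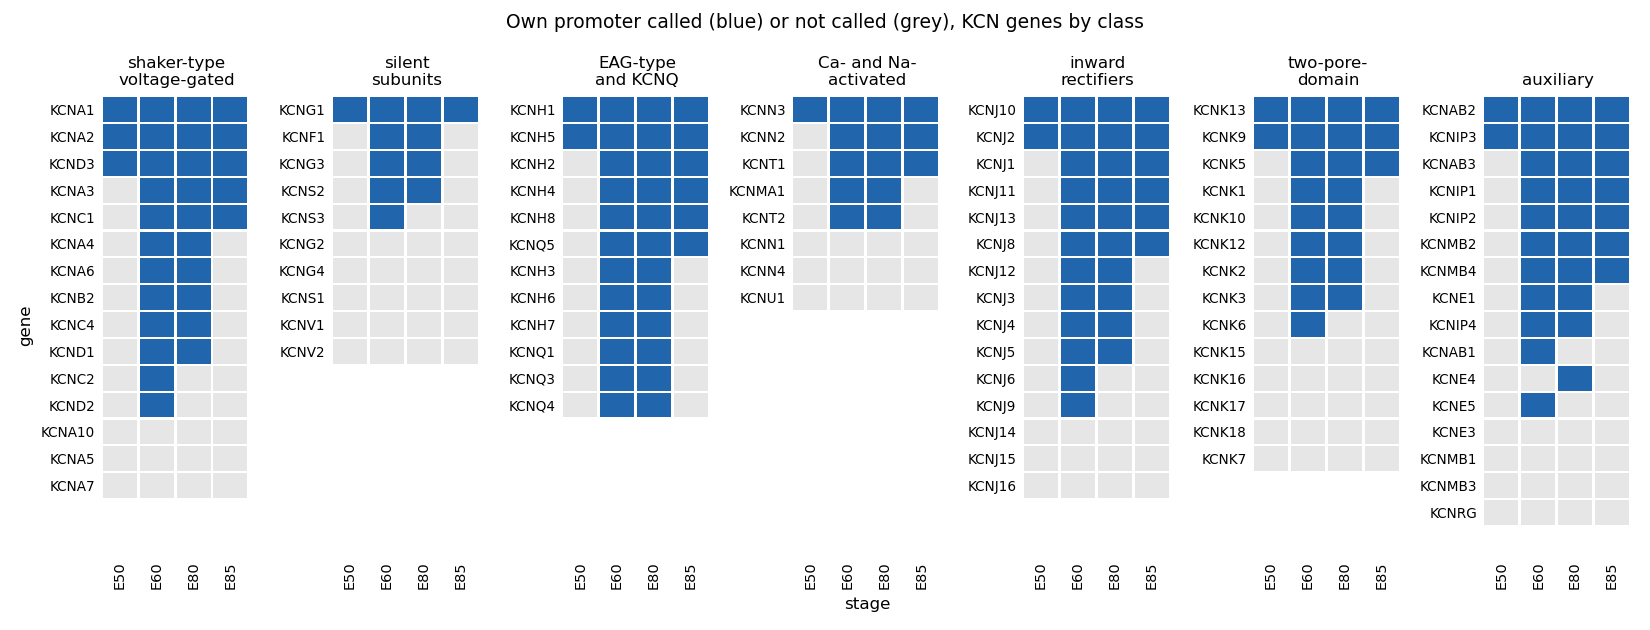
Promoter call of 90 of the 93 KCN genes (rows, grouped by class) at each stage (columns), blue where an own promoter region was called and grey where none was. Of the 90 genes drawn, the E60 and E80 columns are filled for 66 and 59 and the E50 column for 13.

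Width and base composition differed between these patterns, and composition did not follow the number of stages. KCN promoter regions called at all 4 stages had a median width of 1389 bp, those called at E60, E80 and E85 882 bp, those at E60 and E80 alone 819 bp and those at E60 alone 495 bp. Over all promoter regions the corresponding medians were 1272, 969, 728 and 439 bp. A region is merged from the peaks of all stages and from lifted peaks, so more peaks can make it wider by construction. Lifted peaks lay in 100% of the KCN promoter regions called at all 4 stages and in 73.3% of those at E60 alone. Composition was read in a window of 500 bp on each side of the first start, while a call could lie at any own start. The window therefore need not hold the called promoter region. In it, the median GC content was 65.8% for the 15 genes called at all stages and 68.7% for the 27 called at E60 and E80 alone. It was 60.1% for the 18 called at E60, E80 and E85 and 55.1% for the 24 with no call. The ratio of observed to expected CG dinucleotides had medians of 0.71, 0.78, 0.64 and 0.41 in these groups. Among all protein-coding genes the same 4 patterns had median GC contents of 61.4%, 62.2%, 61.4% and 49.1% and ratios of 0.78, 0.72, 0.74 and 0.28. The part of width and base composition in the stage calls was not tested. A pair of reference stretches shows promoter regions of different call patterns, upstream of KCNMA1 (called at E60 and E80 alone) and of KCNIP3 (called at all 4 stages), as 300 bases each of the plus strand with CG dinucleotides in capitals.
KCNMA1 chr9:60111495-60111794: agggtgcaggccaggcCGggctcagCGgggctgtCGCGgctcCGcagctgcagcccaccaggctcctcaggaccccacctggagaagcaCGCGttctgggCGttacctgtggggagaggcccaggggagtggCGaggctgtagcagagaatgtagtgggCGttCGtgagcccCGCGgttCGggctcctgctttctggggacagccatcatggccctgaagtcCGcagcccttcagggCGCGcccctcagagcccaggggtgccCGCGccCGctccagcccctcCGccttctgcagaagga
KCNIP3 chr13:302610-302909: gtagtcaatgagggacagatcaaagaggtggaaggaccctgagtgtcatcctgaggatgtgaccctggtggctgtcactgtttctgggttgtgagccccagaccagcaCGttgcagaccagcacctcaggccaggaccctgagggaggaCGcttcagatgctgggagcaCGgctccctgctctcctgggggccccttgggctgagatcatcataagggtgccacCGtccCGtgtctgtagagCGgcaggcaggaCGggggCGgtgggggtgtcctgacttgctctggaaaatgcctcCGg
The KCNMA1 stretch held 21 CG dinucleotides and the KCNIP3 stretch 9. In the windows around their first starts the ratio was 0.31 for KCNMA1 and 0.33 for KCNIP3, both below the medians of their patterns. The KCNMA1 stretch lies outside that window, so the KCNMA1 ratio does not describe it. Both stretches are examples and do not stand for their groups. Neither overlapped an annotated exon.

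Distal regions of the KCN loci had shares nearer to those of all distal regions than promoter regions had to theirs at E50 and E85. Of the 324 distal regions, 12.3% were called at E50 (interval 8.97 to 16.4, 17.7% of all distal regions), 79.0% at E60 (79.4% of all), 77.2% at E80 (77.4% of all) and 25.6% at E85 (interval 21.0 to 30.7, 31.7% of all). For the 99 promoter regions the shares were 19.2% at E50 (interval 11.97 to 28.3, 53.7% of all promoter regions), 99.0% at E60 (94.2% of all), 84.8% at E80 (90.1% of all) and 40.4% at E85 (interval 30.7 to 50.7, 67.7% of all). The most frequent pattern was E60 and E80 alone, with 161 of 423 regions (38.1%, against 29.4% of all regions), and 53 regions were called at all 4 stages (12.5%, against 23.5%).

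Most regions lay in a minority of the loci. The 22 loci with at least 6 regions held 292 of the 423, and 25 loci held 1 region. KCNMA1, which encodes the large-conductance calcium-activated channel that couples calcium entry to repolarization, led with 46 regions, of which E50 had 8, E60 31, E80 42 and E85 12. KCNIP1, an auxiliary subunit gene of A-type channels, had 25, with 2, 23, 23 and 9 at the successive stages. KCNQ3 had 23, with 0, 20, 20 and 1, so that it was called almost solely at E60 and E80. KCNN3 had 22 (2, 19, 17 and 5), KCNQ5 19 (1, 15, 16 and 6) and KCNH7 16 (2, 15, 11 and 3). KCNQ1, better known from heart and inner ear, had 14 (3, 12, 10 and 5), and KCND3, an A-type channel gene, had 13 (5, 10, 12 and 5). Long bodies did not all hold many regions. KCNIP4, the longest member with a body of 1226 kb, held 2 regions, KCNT2 with 398.8 kb held 1, and KCNB2 with 412.7 kb held 2. Per 100 kb of locus, KCNMA1 had 5.47 regions and KCNN3 12.6, while the short loci KCNJ11, KCNAB3 and KCNH2 had 37.2, 21.7 and 20.9. These length examples were picked once their values were known.

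**Figure D3:**
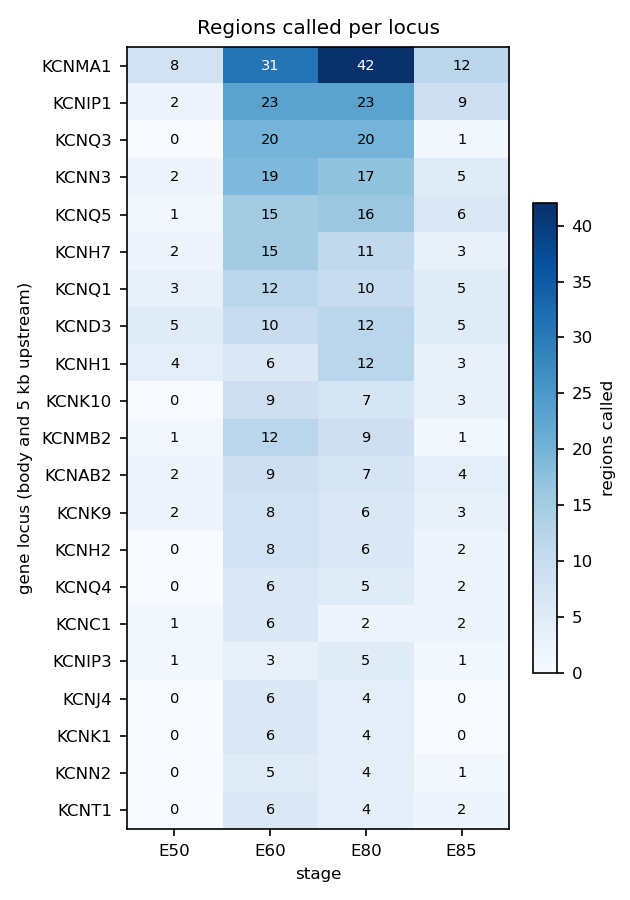
Number of regions called at each stage (columns) in 21 of the 22 KCN loci with at least 6 regions (rows), with darker blue for more regions. KCNMA1 reaches 42 at E80 and KCNQ3 has 0 at E50 and 1 at E85 beside 20 at each of E60 and E80.

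E60 and E80 were then compared by the regions that only 1 of them had. At KCN loci 84 regions were called at E60 and not E80, and 64 at E80 and not E60. The E80 share was 43.2% (exact interval 35.1 to 51.6), close to the 46.1% of all regions. Among KCN promoter regions 15 were E60-specific and 1 was E80-specific (KCNE4), an E80 share of 6.25% (interval 0.158 to 30.2, against 32.3% of all promoter regions). Among distal regions the numbers were 69 and 63. At the level of loci, 31 of 83 had more E60-specific regions (37.3%, against 20.2% of all loci with a region), 16 had more E80-specific regions (19.3%, against 17.2%) and 36 had equal numbers (43.4%, against 62.5%). With regions that hold no lifted peak, 17 loci had more E60-specific and 15 more E80-specific regions. A locus with many regions has more chances to differ, and single loci were not tested. Late-only regions, with a call at E80 or E85 but none earlier, numbered 67, against 81 early-only regions with calls at E50 or E60 and none later, a late share of 45.3% (interval 37.1 to 53.7, against 48.3% of all regions). By that count 17 loci had more late-only regions (17.8% of all loci did) and 29 had more early-only regions (19.6%). KCNQ5 had 4 late-only regions against 2 early-only ones.

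**Figure D4:**
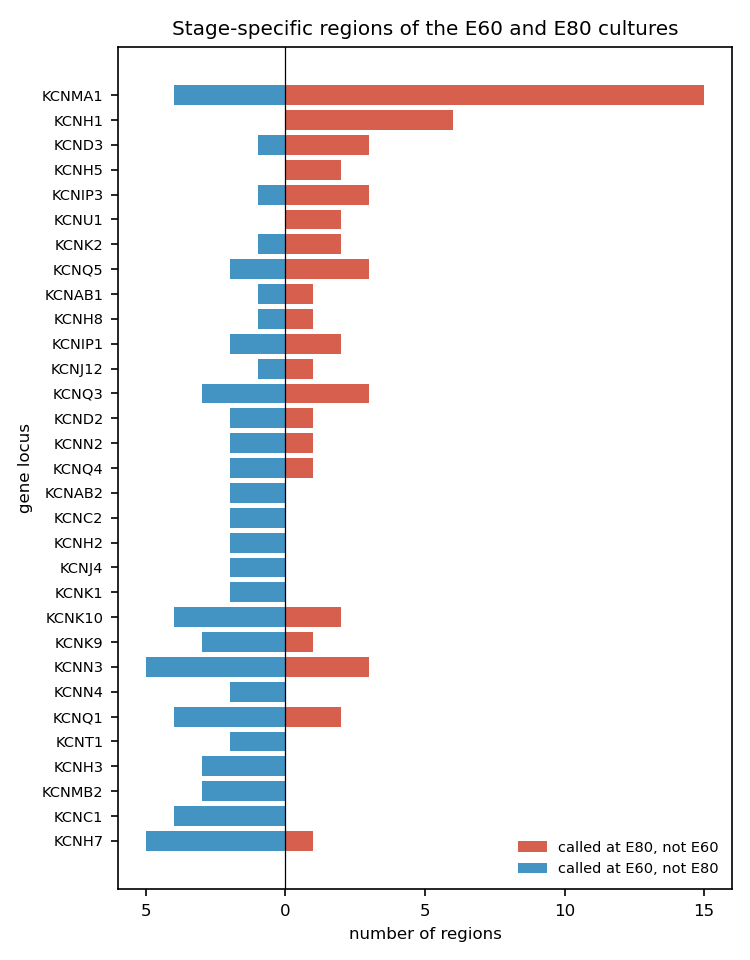
Regions called at E80 and not E60 (red, to the right) and at E60 and not E80 (blue, to the left) for KCN loci with at least 2 such regions (rows), with the number of regions on the x axis. KCNMA1 has 15 against 4 and KCNH1 6 against 0, while KCNC1 has 0 against 4 and KCNH7 1 against 5.

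KCNMA1 had the largest difference towards E80, with 15 E80-specific and 4 E60-specific regions. Without this locus, the other KCN loci had 49 E80-specific and 80 E60-specific regions, an E80 share of 37.98% (interval 29.6 to 46.9). That interval holds the 46.1% of all regions. Leaving out the locus with the largest difference towards E80 lowers the share by construction. KCNMA1 lies on chromosome 9 from 60112455 to 60947862, and 43 of its 46 regions were distal. Its promoters, one 0.811 kb before the gene start and one 73.2 kb inside the gene at another annotated start, were called at E60 and E80 alone. Of the 7 regions called at all 4 stages, 6 had their centres between 179.6 and 227.6 kb from the gene start, within introns. The E80-specific regions were spread from 36.2 to 684.9 kb, and 13 of the 15 were called at E80 alone. The E60-specific ones had their centres at 40.5, 41.7, 45.99 and 459.2 kb.

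KCNH1 stood next, with 6 E80-specific regions and 0 E60-specific ones. It encodes an EAG-type voltage-gated channel and lies on the minus strand of chromosome 1 from 68171234 to 68624281. Its locus had 4, 6, 12 and 3 regions at the successive stages. Its promoter was called at all 4 stages, and the E80-specific regions were all intronic and distal. Of these, 4, each called at E80 alone, lay close together towards the end of the gene, with centres 416.7, 425.2, 436.1 and 443.7 kb from its start. KCNIP3, which encodes the calcium-binding protein also called DREAM, had 3 against 1. KCND3 had 3 against 1, and KCNH5 and KCNU1 had 2 against 0 each. KCNU1 is known as the sperm channel gene.

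**Figure D5:**
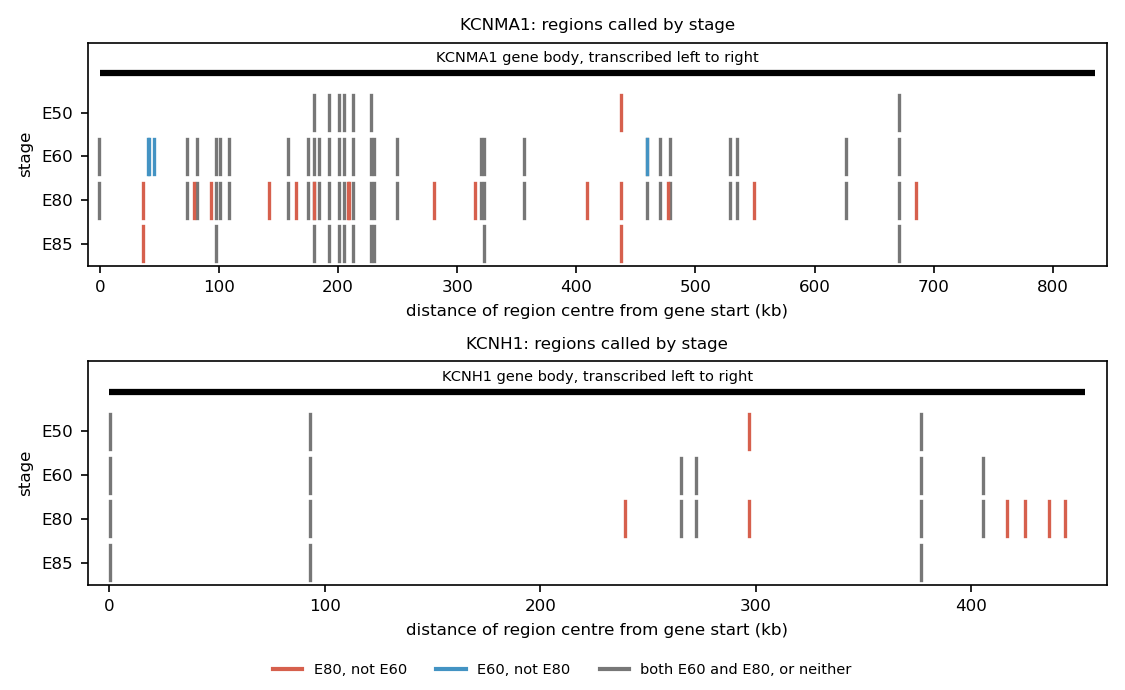
Regions called at each stage (rows) along KCNMA1 (top) and KCNH1 (bottom), by distance of the region centre from the gene start in kb (x axis), with the gene body as a black bar. Red marks regions called at E80 and not E60, blue those called at E60 and not E80, and grey the rest. Of the 7 KCNMA1 regions called at all stages, 6 sit between 179.6 and 227.6 kb, and 4 red marks of KCNH1 sit between 416.7 and 443.7 kb.

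On the E60 side, KCNC1 and KCNH7 had the largest differences. KCNC1, a Kv3-type gene of fast-spiking cells, had 4 E60-specific regions and 0 E80-specific ones, and its calls were 1, 6, 2 and 2. KCNH7 had 5 against 1. KCNH3, of the EAG type, and the auxiliary gene KCNMB2 each had 3 against 0. KCNT1, which encodes a sodium-activated channel, KCNH2, the inward rectifier KCNJ4, the two-pore-domain gene KCNK1, KCNC2, KCNN4 and KCNAB2 each had 2 against 0, with KCNT1 and KCNN4 added to this group after their values were seen. KCNK9 had 3 against 1, and KCNN3, KCNQ1 and KCNK10 had 5 against 3, 4 against 2 and 4 against 2. KCNIP1 and KCNQ3, with many regions, were level at 2 against 2 and 3 against 3.

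By class, the 13 EAG-type and KCNQ genes had 2, 12, 12 and 6 promoters called at the successive stages, and they held 119 regions, of which 20 were E80-specific and 24 E60-specific. The 17 Shaker-related voltage-gated pore genes had 5, 14, 12 and 7 promoters, and 6 E80-specific regions against 14. The 10 modulatory subunit genes, whose products are silent alone, had 1, 5, 4 and 1 promoters and 8 regions in all. The 8 genes listed as calcium- and sodium-activated pore genes had 1, 5, 5 and 3 promoters. KCNU1 stands among them by that listing alone. Their 90 regions had more E80-specific than E60-specific members (21 against 15), of which KCNMA1 gave 15 and 4. The 15 inward rectifier genes had 2, 12, 10 and 6 promoters and 3 E80-specific regions against 6. The 14 two-pore-domain genes, which carry background potassium current, had 2, 9, 8 and 3 promoters and 5 E80-specific regions against 14. The 16 auxiliary genes had 2, 11, 10 and 7 promoters and 8 E80-specific regions against 10. All protein-coding genes also had the fewest promoters called at E50, the smallest set (44.3%, 64.7%, 63.2% and 53% at the successive stages). The E80 share of all regions, 46.1%, lay within the counting interval of every class, for example 9.15 to 51.2 for the two-pore-domain genes (26.3%) and 40.8 to 74.5 for the calcium- and sodium-activated ones (58.3%).

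Partners of these channels that do not carry the KCN name were read in the same way. Of 15 such genes, promoters were called for 4, 12, 9 and 6 at the successive stages (26.7%, 80%, 60% and 40%). The shares of all genes (44.3%, 64.7%, 63.2% and 53%) each lay within the counting interval. The 91 regions of these partners included 16 E80-specific and 30 E60-specific ones. Their E80 share of 34.8% had an interval of 21.4 to 50.2, which holds the 46.1% of all regions. DPP6, an auxiliary subunit gene of A-type channels, had 30 regions, with 5 E80-specific and 10 E60-specific, and a promoter called at all 4 stages. CNTNAP2, whose product helps to cluster channels along myelinated axons, had 21 (4 against 7). ANK3, the axon initial segment anchor gene, had 14 (5 against 3). DPP10, the close relative of DPP6 with a body of 1399 kb, held no region.

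Motifs were searched on both strands within 150 bp of each region centre, to see whether KCN regions differed from others of the same stage pattern. This window has equal length for all regions, and for a narrower region it takes in flanking bases. A motif is said to be in a region when it lies in this window. The AP-1 motif TGACTCA, bound by FOS and JUN dimers, was in 20 of the 64 E80-specific KCN regions (31.2%, interval 20.2 to 44.1) and in 39.9% of all E80-specific regions. It was in 8 of the 84 E60-specific KCN regions (9.52%, interval 4.202 to 17.9) and in 10.6% of all E60-specific regions. The E-box CAGCTG was in 17.2% of the E80-specific and 33.3% of the E60-specific KCN regions, against 21.1% and 31.6% of all such regions. The homeobox motif TAATTA was in 7.81% and 10.7%, against 7.01% and 14.7%. The TEAD motif ACATTCC was in 7.81% and 2.38%, against 10.1% and 4.08%. In these E80-specific and E60-specific sets, each share of all regions lay within the counting interval of the KCN share. Over all stage patterns, AP-1 was in 0 of 99 KCN promoter regions (interval 0 to 3.66), below the 5.52% of all promoter regions. TEAD was in 3.395% of KCN distal regions (interval 1.71 to 5.99), below the 6.34% of all distal regions. Within 100 bp, the TEAD share of all distal regions (4.59%) lay within the KCN interval (1.07 to 4.81). Within 250 bp, the KCN distal share was again below (5.56%, interval 3.33 to 8.64, against 9.28%). E-box and homeobox shares of all regions lay within the KCN intervals. A match describes the letters and is not evidence of binding.

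AP-1 matches of E80-specific KCN regions lay in 13 loci, led by KCNMA1 (5 of its 15 E80-specific regions) and KCNH1 (4 of 6). The 4 neighbouring KCNH1 regions called at E80 alone all held one, and are shown as 101 bases of the plus strand centred on the first match, with TGACTCA or its reverse complement in capitals.
KCNH1 chr1:68180579-68180679: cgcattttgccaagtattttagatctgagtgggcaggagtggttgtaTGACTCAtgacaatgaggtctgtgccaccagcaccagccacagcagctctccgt
KCNH1 chr1:68188220-68188320: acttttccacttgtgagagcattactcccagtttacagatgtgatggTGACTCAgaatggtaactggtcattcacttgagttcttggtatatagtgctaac
KCNH1 chr1:68199187-68199287: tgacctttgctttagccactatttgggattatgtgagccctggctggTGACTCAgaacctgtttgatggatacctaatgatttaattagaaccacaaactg
KCNH1 chr1:68207568-68207668: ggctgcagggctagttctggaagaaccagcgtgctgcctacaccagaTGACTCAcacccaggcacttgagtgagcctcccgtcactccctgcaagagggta
All 4 printed matches read TGACTCA on the plus strand. The window around the centre of the KCNH1 region from 68207530 to 68207726 held 2 matches, of which the first is printed. This window is wider than the region. For comparison, the 5 E80-specific regions of KCNMA1 with a match are shown as 61 bases each.
KCNMA1 chr9:60148612-60148672: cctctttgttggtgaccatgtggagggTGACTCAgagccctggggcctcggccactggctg
KCNMA1 chr9:60254182-60254242: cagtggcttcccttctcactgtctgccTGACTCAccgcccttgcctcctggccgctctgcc
KCNMA1 chr9:60277460-60277520: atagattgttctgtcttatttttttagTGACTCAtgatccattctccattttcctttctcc
KCNMA1 chr9:60521218-60521278: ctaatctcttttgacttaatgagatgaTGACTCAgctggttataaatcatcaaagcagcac
KCNMA1 chr9:60797471-60797531: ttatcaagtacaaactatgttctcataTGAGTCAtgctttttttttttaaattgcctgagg
The first of these was called at E80 and E85 and the other 4 at E80 alone, and the last shows the reverse complement. Among its distal regions KCNMA1 had the AP-1 motif in 17 of 43 (39.5%, interval 25.0 to 55.6), and the 25.8% of all distal regions lay within that interval. The 7 KCNMA1 regions called at all 4 stages, all distal, held it in 4 (57.1%, interval 18.4 to 90.1), and the 19.7% of all distal regions with that pattern lay within the interval. Both readings depended on the motif window. Within 250 bp of the centre, 46.5% of distal KCNMA1 regions held the motif (interval 31.2 to 62.3), above the 29.8% of all distal regions. Within 100 bp, this share of all distal regions lay within the KCNMA1 interval. For the pattern of all 4 stages the reverse held. Within 100 bp the 14.8% of all such distal regions lay below the KCNMA1 interval (18.4 to 90.1), and within 250 bp it lay inside.

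The RE1 element, bound by REST, the repressor of neuronal genes in non-neuronal cells, was searched because many channel genes are known REST targets. The central RE1 sequence, with its spacer bases free, was found without mismatch in 2 of the 423 KCN regions (0.473%, interval 0.0573 to 1.70) and in 99 of all 72358 (0.137%). The KCN matches were in an intron of KCNAB2, in a region called at E60 alone, and in an intron of KCNH4 near its start, in a region called at E60 and E80. Both are shown as 61 bases of the plus strand with the match, here as the reverse complement, in capitals.
KCNAB2 chr1:218480595-218480655: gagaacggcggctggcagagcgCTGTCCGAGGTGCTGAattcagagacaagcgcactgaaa
KCNH4 chr16:53303563-53303623: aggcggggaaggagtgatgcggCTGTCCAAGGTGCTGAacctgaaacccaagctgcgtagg
An exact search misses elements that differ from this core by a base.

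The cultures showed promoter calls of cortical progenitor genes at every stage. Of 10 progenitor markers, 9 had a promoter called at E50 and 10 at each later stage, among them PAX6, SOX2 and LHX2. Of 7 neuronal markers, 2, 5, 4 and 2 were called at E50, E60, E80 and E85. MAP2 and SYT1 were called at every stage, STMN2 and TBR1 at E60 and E80 alone, DCX at E60 alone, and NEUROD2 and NEUROD6 at none. With 7 genes the interval at E50 was 3.67 to 71.0%, which holds both the KCN share and that of all genes, and the part of neuronal cells in the KCN counts was not tested. None of 8 microglia markers had a promoter call, where 33.1% of all genes had none. Of 6 endothelial markers, 0, 3, 2 and 0 were called. CLDN5 and KDR were called at E60 and E80 alone, FLT1 at E60 alone, and CDH5, PECAM1 and TEK at no stage. Of 6 mesenchymal and mural markers, 1, 2, 2 and 2 were called. Of 5 astrocyte and 5 oligodendrocyte lineage markers, 4 and 2 were called at E50 and 4 and 3 at each later stage. Beside these marker counts, the shares of all genes were 44.3%, 64.7%, 63.2% and 53% at the successive stages.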

How the data were processed

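Per the submitters' processing notes, reads were handled with cutadapt 4.4, Bowtie2 2.5.1 and SAMtools 1.15 on build rheMac10. For peak calling, the tool, threshold, filters and pooling of libraries are not stated in those notes or labels. A headerless table of 112696 merged regions was deposited by the authors. Stage codes in the peak names were the measurement used here. Another 8 columns of values carry no names and were not used, so depth was not used either. Regions holding only lifted peaks (40338) were left out.

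Positions are printed as the table gives them and read as 1-based, since its width column counts both ends, though a shift of 1 base is possible. All sequence names matched the Mmul_10 assembly report, and no region ended beyond its sequence. Sequences are from the NCBI Mmul_10 reference. The member rule and the class lists were chosen with earlier results of these data known. Of the listed symbols, KCNE1B, KCNE2, KCNJ18, KCNK4 and SCN2A were not found in the annotation. Named by rule were the 10 loci with most regions, the 8 per side with the largest E60 to E80 or early to late difference (at least 2), genes with promoters called at exactly 1 or all 4 stages, loci with no region, and the 3 genes with most regions per class or list. Other genes named, as examples of a pattern, were chosen after their values were seen. Counting was checked on simulated data. Intervals are exact Clopper-Pearson. Software was matplotlib 3.10.9, pysam 0.24.0, pandas 2.3.3 and SciPy 1.17.1 under Python 3.11.15. Alternatives changed the locus, promoter window, overlap rule, region width, lifted peaks, motif window and cultures used. Results for some single genes are not reported here, and those genes are not drawn in plots by gene, though they stay in every count.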

Additional observations from a re-analysis of the deposited data

Results flagged for a closer look

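Regions that hold lifted peaks alone, which no comparison above used, were also present at potassium channel loci. There were 206 of them at 53 KCN loci, 0.511% of all 40338 such regions, while the 423 regions with a macaque peak made up 0.585% of theirs. KCNIP1 had 21, KCNMA1 16, and KCND3 and KCNQ1 11 each. The labels do not define the sets the lifted peaks came from.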

How the results depend on the processing

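Of 106 values recomputed for 17 results, 86 stayed within 1.5 times the count reported or within its counting interval. With regions of at most 1000 bp, KCN regions numbered 26 at E50 and 78 at E85 and promoter regions 57, and promoters were called for 3, 43, 36 and 13 genes at the successive stages. With regions that hold no lifted peak, KCN regions numbered 3, 114, 114 and 22, promoter regions 8, genes with a called promoter 0, 7, 4 and 2, and loci with more E60-specific regions 17, beside 15 with more E80-specific ones, with an E80 share of 50% (42 of 84). These settings keep fewer regions by construction. With regions of at most 1000 bp, the promoter share of KCN genes stayed below that of all genes beyond its interval at E50 but not at E85. With no lifted peak, all genes stood at 1.56%, 6.33%, 5.76% and 2.54% at the successive stages, each within the KCN interval (0 to 3.89 at E50), so neither shortfall was detectable there. The all-gene shares under both settings were added after seeing the data. The late share was 100% without the E60 culture (283 of 283 regions) and 4.67% without the E80 culture (12 of 257), since leaving out a large set removes most regions of that side by construction. The E-box was in 22.6% of E60-specific KCN regions within 100 bp of the centre, a narrower window. Regions outside other protein-coding bodies, chosen as an alternative after seeing the data, changed neither share beyond its interval. No paired analysis was possible because the peak sets carry a stage and no library. For the same reason no replicate could be left out.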

Other observations

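Other ion channel families were read by the same rules. The 18 voltage-gated calcium channel genes all had a region, 180 in total, with promoters called for 3, 14, 13 and 4 genes at the successive stages. These were 16.7%, 77.8%, 72.2% and 22.2%, against 44.3%, 64.7%, 63.2% and 53% of all genes. At E50 (interval 3.58 to 41.4) and E85 (6.41 to 47.6) the share of all genes lay above the interval, as it did for KCN genes. At E60 and E80 it lay within. Their regions included 28 E80-specific and 42 E60-specific ones, an E80 share of 40.0% (interval 28.5 to 52.4, which holds the 46.1% of all regions). CACNA1C and CACNA1E had 30 regions each and CACNA2D3 22. CACNA1G, a T-type channel gene, had 6 E60-specific regions and 0 E80-specific ones, while CACNA1D, an L-type channel gene, had 0 E60-specific and 4 E80-specific ones. Both of these genes were picked with their values known.

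The 12 voltage-gated sodium channel genes held 28 regions and had promoters called for 4, 6, 6 and 5 genes at the successive stages. These were 33.3%, 50%, 50% and 41.7%, and the share of all genes lay within the counting interval at each stage. SCN8A led with 6 regions, followed by SCN4B with 5 and SCN3B with 3. SCN9A had a promoter called at E50 and E85 alone, a pattern that no KCN gene had, and was singled out after its values were seen. The 4 HCN genes, whose channels carry the pacemaker current, held 15 regions.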
